A study of Mus musculus with 8 samples.

Results

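The NF-kB pathway was followed through 10 genes, chosen by name from the 31252 genes of the deposited tables: the subunits Nfkb1, Nfkb2, Rela and Relb, the inhibitors Nfkbia and Tnfaip3, and Il6, Ptgs2, Il1rl1 and Vcam1, grouped here as inflammatory targets. Messenger RNA was sequenced from the mouse preadipocyte line 3T3-L1, whose fibroblast-like cells become adipocytes under a hormone cocktail. The control cells carried an empty shRNA vector. Other cells carried an shRNA against Maf1 (shMaf1), which encodes a repressor of RNA polymerase III, or an shRNA against Brf1 (shBrf1), whose product belongs to TFIIIB, the factor that brings the same polymerase to its genes. A further set of cells received ML-60218, which inhibits that polymerase, and the labels give neither its dose, vehicle and start of treatment nor whether those cells carried the vector. Cells 2 days past confluence were taken as day 0, and day 2 followed 2 days of insulin (10 µg/mL), dexamethasone (2 µM), IBMX (0.5 mM), which raises cAMP, and ascorbic acid (25 µg/mL). There was 1 library for each of the 8 groups, which gives no replicate check of any difference below, and none was tested. The 3 comparisons of a day with control share its 1 control library.

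NF-kB proteins are dimers of Rel-family subunits that IkB proteins such as the product of Nfkbia hold in the cytoplasm. Receptors of the tumour necrosis factor, interleukin 1 and Toll-like families activate the IkB kinase, IkB is degraded, and the dimers enter the nucleus and bind promoters, among them those of their own inhibitors. In fat tissue the pathway is known for its part in inflammation, and glucocorticoids such as dexamethasone are known to hold back many of its targets.

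Levels are library-scaled counts (CPM) after TMM scaling of all 8 libraries, which held 29035505 to 31759559 counts each. A gene is called higher or lower where its log2 ratio of CPM + 0.5 was at least 1 in size (2-fold) and the higher library reached 1 CPM. Folds are ratios of CPM, so that of a low gene can pass 2 while its log2 ratio stays under 1. Intervals in parentheses are exact 95% counting intervals and cover counting error only. The targeted genes stood lower in their own libraries: Maf1 was 4.26-fold (3.83 to 4.74) and 5.00-fold (4.45 to 5.62) below control in shMaf1 at days 0 and 2, and Brf1 2.06-fold (1.82 to 2.35) below it in shBrf1 at day 2, while its log2 ratio at day 0 was -0.78. The shBrf1 library of day 2 stood apart from the other libraries in the deposited quality tables. Ribosomal RNA took 7.8% of its reads against 0.46% to 0.93% elsewhere. Its skewness score, taken here as 3′ bias of coverage, was 0.36 against 0.06 to 0.22. ERCC spike-in read pairs per 1000 counts numbered 3.847 to 4.284 in the day 0 libraries. At day 2 they numbered 8.179 with shBrf1, 7.806 with ML-60218, 5.487 for the control and 4.997 with shMaf1. Scaling on the spike-ins therefore moved the median log2 ratio of all genes to -0.66 for shBrf1 and -0.58 for ML-60218 against control at day 2, and to -0.62, -0.31, -1.19 and -1.23 for day 2 against day 0 in control, shMaf1, shBrf1 and ML-60218. Every direction below is relative to the TMM scale, on which these medians lay within 0.05 of 0. Fibroblast and preadipocyte markers were high, with 7 of 7 at 1 CPM or more and summed levels of 25150 to 32510 CPM at day 0. At day 2 the sums were 18550 CPM in control and 21940 in shMaf1, and 9955 in shBrf1 and 10320 in ML-60218, the 2 lowest of the 8 libraries. The collagen genes Col1a1, Col1a2 and Col3a1 made up most of each sum, and not every marker followed it. Pdgfra was at 638.6 CPM at day 0 and 1365 at day 2 in control, 672.1 then 720.9 in shBrf1, and 540.2 then 586.3 in ML-60218. Thy1 was lowest in shMaf1, at 54.05 and 59.18 CPM. Of 6 macrophage markers 2 reached 1 CPM (Cd68 and Cd14), with summed levels of 6.38 to 13.7 CPM, Adgre1 at 0 in every library and Ptprc at 0.034 CPM at most. Of 5 endothelial markers 1 reached 1 CPM (Tek), with summed levels of 0.610 to 2.4 CPM. Of 6 mast cell and T cell markers 1 did (Gata3), with summed levels of 1.20 to 7.69 CPM, and Kit, Cpa3, Mcpt4, Fcer1a and Cd3e had no count in any library.

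Of the 10 genes, 7 had a promoter window in RefSeq's table for the build GRCm38.p6, from 250 bases before to 50 after the start, 11 windows in all. Both strands were searched for the degenerate NF-kB consensus and for one form of it, the site of the immunoglobulin kappa enhancer (capitals of the third sequence below). The consensus matched in windows of Nfkb2, Nfkbia, Tnfaip3 and Il6, and no match was found in those of Rela, Ptgs2 and Il1rl1. Over all 32544 windows of the table, 8.49% held the consensus and 0.157% held the kappa enhancer site. These shares count windows, whereas the matches above are counted by gene, and Nfkb2 had 3 windows and Tnfaip3 2. The sites are shown because they lie at the inhibitors, at Il6 and at a subunit whose levels are compared below. Capitals mark the 10 bases that match, each sequence runs along its gene's strand, and positions count from the window's start of transcription. For Il6 that start lies upstream of the gene coordinates given below, which begin at chr5:30013161.
Nfkb2 at -39 to -30, chr19:46304688-46304717: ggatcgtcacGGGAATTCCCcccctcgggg
Nfkb2 at -11 to -2, chr19:46304716-46304745: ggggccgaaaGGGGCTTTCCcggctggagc
Nfkb2 at 11 to 20 of a downstream start, chr19:46305695-46305724: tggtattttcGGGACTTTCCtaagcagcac
Nfkbia at -29 to -20, chr12:55492657-55492686: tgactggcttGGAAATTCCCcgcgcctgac
Tnfaip3 at -12 to -3, chr10:19015403-19015432: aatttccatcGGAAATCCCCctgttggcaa
Tnfaip3 at -125 to -116, chr10:19015516-19015545: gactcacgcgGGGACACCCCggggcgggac
Il6 at -44 to -35, chr5:30013060-30013089: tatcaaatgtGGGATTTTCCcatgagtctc
The site of Nfkbia and that of Tnfaip3 at -12 match on the strand opposite to the gene. Not shown for Nfkb2 are a match at -38 to -29, which overlaps the first site, and a match at -236 to -227 of the downstream start (chr19:46305449-46305478). The kappa enhancer site of Nfkb2 also lies at -225 to -216 of another start. Of the 7 genes, Nfkb2 alone had the kappa enhancer site in a window. A match describes the letters of the window and does not show that the site is bound.

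The subunit genes differed little between libraries at day 0 and more at day 2. Nfkb1 (chr3:135584655-135691547, build mm10) encodes the subunit p50 within a longer precursor that can itself act as an inhibitor. Its level was 82.9 CPM at day 0 and 63.0 at day 2 in control, 103 then 95.3 in shMaf1, 88.0 then 38.3 in shBrf1, and 83.9 then 46.2 in ML-60218. It was thus highest in the libraries of shMaf1 and lowest at day 2 in shBrf1 and ML-60218. In shBrf1 it fell 2.30-fold (2.14 to 2.47) from day 0 to day 2, the one change of a subunit past the rule. Its day 2 levels against control had log2 ratios of 0.59 in shMaf1, -0.71 in shBrf1 and -0.44 in ML-60218.

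Nfkb2 (chr19:46304737-46312385) encodes the precursor of p52, the subunit of the alternative pathway. It stood at 114 CPM in control at day 0 and 211 at day 2, at 112 and 198 in shMaf1, at 98.5 and 107 in shBrf1, and at 98.9 and 178 in ML-60218. The day 2 libraries of control, shMaf1 and ML-60218 lay above all 4 of day 0, while that of shBrf1 lay among them. The log2 ratios of day 2 against day 0 were 0.88 in control, 0.83 in shMaf1, 0.12 in shBrf1 and 0.84 in ML-60218, none past the rule, and spike-in scaling turned the last 2 to -1.10 and -0.45. Against control at day 2 Nfkb2 was 1.97-fold (1.89 to 2.06) lower in level in shBrf1, a log2 ratio of -0.98 that stops just short of the rule.

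Relb (chr7:19606222-19629438) encodes the usual partner of p52. It had 25.2 CPM in control, 24.4 in shMaf1, 22.4 in shBrf1 and 23.5 with ML-60218 at day 0, and 43.4, 33.9, 25.6 and 27.3 in the same order at day 2. Control at day 2 stood highest and shMaf1 at day 2 came next, and between any 2 neighbours of the other 6 libraries in the order of levels the interval of the fold included 1. The interval from day 0 to day 2 excluded 1 in shBrf1, at 1.14-fold (1.03 to 1.27), and in ML-60218, at 1.16-fold (1.05 to 1.29). The log2 ratios to control at day 2 were -0.35, -0.75 and -0.66 in shMaf1, shBrf1 and ML-60218. Rela (chr19:5637490-5648130), which encodes p65, the subunit with the main activation domain of the classical dimer, varied least of the 10. It was at 68.4 CPM in control at day 0 and 79.7 at day 2, at 63.6 and 62.0 in shMaf1, at 61.2 and 55.5 in shBrf1, and at 68.7 and 72.1 in ML-60218. Its highest and lowest libraries differed 1.44-fold. Across the 4 subunit genes, all 4 log2 ratios to control at day 2 were below 0 for both shBrf1 and ML-60218, with medians of -0.73 and -0.35, none past the rule. In shMaf1 3 of the 4 were below 0. Of the further pathway genes listed below, 50 of 63 at 1 CPM or more lay below 0 in shBrf1, 46 of 65 in ML-60218 and 44 of 65 in shMaf1. Their median log2 ratios were -0.26, -0.14 and -0.22 in that order, beside 0.005, 0.008 and -0.001 over all genes at that level. The summed fibroblast and preadipocyte markers were lowest in shBrf1 and ML-60218 at day 2, and their part in these values was not tested.

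**Figure D1:**
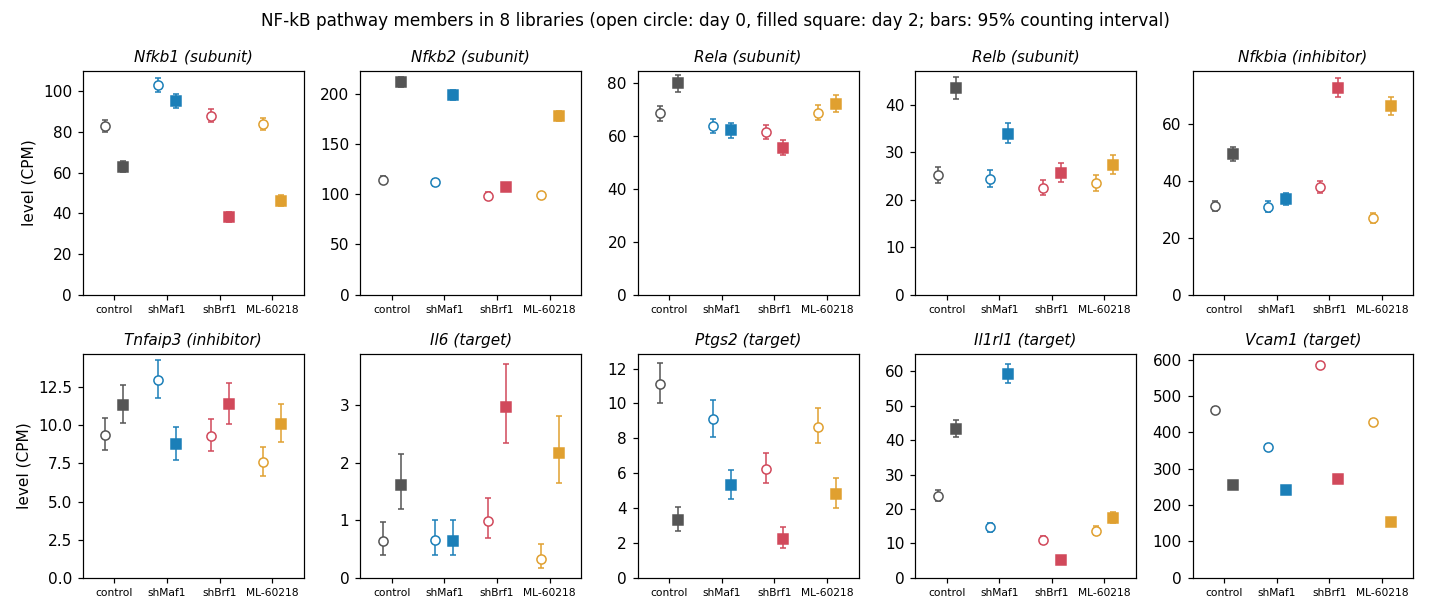
Level in CPM of each of the 10 genes (1 panel a gene, vertical axes from 0) in the 4 conditions, with day 0 as open circles and day 2 as filled squares, 1 library each; bars are 95% counting intervals and are smaller than the symbol for the higher genes. Il1rl1 ran from 5.09 CPM in shBrf1 at day 2 to 59.3 CPM in shMaf1 at day 2, and Nfkbia was highest at day 2 in shBrf1 and ML-60218 on this TMM scale.

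The 2 inhibitor genes did not move alike. Nfkbia (chr12:55489409-55492647) encodes IkB alpha and is itself induced by NF-kB and by glucocorticoids. It measured 31.1 CPM at day 0 and 49.4 at day 2 in control, 30.9 then 33.7 in shMaf1, 38.0 then 72.9 in shBrf1, and 26.8 then 66.3 in ML-60218. The day 2 libraries of shBrf1 and ML-60218 held the most, and that of shMaf1 stood near the day 0 libraries. Nfkbia rose 2.47-fold (2.28 to 2.68) from day 0 to day 2 in ML-60218, its only change past the rule, with a log2 ratio of 1.29 that was 0.99 after removal of a trend on transcript length and 0.007 under spike-in scaling. In control, shMaf1 and shBrf1 the same log2 ratio was 0.66, 0.12 and 0.93, and under spike-in scaling -0.0064, -0.21 and -0.28. Against control at day 2 it was -0.55 in shMaf1, 0.56 in shBrf1 and 0.42 in ML-60218, and spike-in scaling turned the last 2 to -0.12 and -0.19.

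Tnfaip3 (chr10:19000910-19015410) encodes a ubiquitin-editing enzyme that ends signalling to the IkB kinase. It showed 9.38 CPM in control, 13 in shMaf1, 9.33 in shBrf1 and 7.57 with ML-60218 at day 0, and 11.3, 8.76, 11.4 and 10.1 in the same order at day 2. In the order of its 8 levels every pair of neighbours had an interval that included 1, while some libraries further apart did not. The level in shMaf1 at day 0 was 1.38-fold (1.19 to 1.61) above control and 1.48-fold (1.27 to 1.74) above shMaf1 at day 2. The rises from day 0 to day 2 in control, shBrf1 and ML-60218, of 1.21-fold, 1.22-fold and 1.33-fold, also had intervals that excluded 1. No change of Tnfaip3 passed the rule, and shMaf1 was the condition in which its level was lower at day 2 than at day 0 (log2 ratio -0.54, against 0.26 to 0.39 elsewhere, which spike-in scaling turned below 0).

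Il6 (chr5:30013161-30019981) encodes interleukin 6 and lay close to the limit of detection. Its counts were 22 at day 0 and 48 at day 2 in control, 21 then 19 in shMaf1, 33 then 77 in shBrf1, and 11 then 57 in ML-60218. In CPM these were 0.635 and 1.62, 0.654 and 0.645, 0.993 and 2.97, and 0.329 and 2.17. Control, shBrf1 and ML-60218 each had more at day 2 than at day 0, and shMaf1 the same within counting error. Il6 rose 2.99-fold (1.96 to 4.64) in shBrf1 and 6.61-fold (3.43 to 14.0) in ML-60218, and the control's fold of 2.55 (1.51 to 4.44) had a log2 ratio of 0.90. Under spike-in scaling the log2 ratios of those 2 rises were 0.26 and 0.88, under the rule, and a pseudocount of 1 left the rise in shBrf1 at 0.99. At day 2 the shMaf1 library stood 2.51-fold (1.45 to 4.52) under control, with a log2 ratio of -0.89 after the pseudocount and -1.31 in the authors' deposited table.

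Ptgs2 (chr1:150100124-150108012), the inducible cyclooxygenase that starts prostaglandin synthesis, was lower at day 2 in every condition. It had 11.1 CPM in control, 9.09 in shMaf1, 6.26 in shBrf1 and 8.68 with ML-60218 at day 0, and 3.34, 5.30, 2.24 and 4.81 in the same order at day 2. It fell 3.34-fold (2.67 to 4.2) in control and 2.80-fold (2.08 to 3.81) in shBrf1, while the log2 ratios of -0.73 in shMaf1 and -0.79 in ML-60218 did not pass the rule. Against control at day 2 the log2 ratios were 0.60 in shMaf1, -0.49 in shBrf1 and 0.47 in ML-60218, the last of which spike-in scaling turned to -0.07.

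Vcam1 (chr3:116110020-116129688) encodes a cell adhesion molecule that leukocytes bind. It held 463 CPM at day 0 and 255 at day 2 in control, 360.4 then 243 in shMaf1, 585 then 272 in shBrf1, and 429 then 155 in ML-60218. Every day 2 library lay below every day 0 library. Vcam1 fell 2.15-fold (2.10 to 2.21) in shBrf1 and 2.77-fold (2.67 to 2.87) in ML-60218, with log2 ratios of -0.86 in control and -0.57 in shMaf1. Per kilobase of the longest annotated transcript its level was 37.9 to 143 CPM, the highest of the 10 genes in every library but that of ML-60218 at day 2, where Nfkb2 had 46.3 and Nfkbia 42.0 CPM per kilobase. On the same scale Il6 had 0.140 to 1.27, Ptgs2 0.502 to 2.50 and Il1rl1 0.960 to 11.2 CPM per kilobase.

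Il1rl1 gave 5 of the 13 ratios past the rule among the 100 computed, more than any other of the 10 genes. Il1rl1 (chr1:40429605-40465414) encodes ST2, the receptor of interleukin 33, which signals through MyD88 to NF-kB, and a secreted form that binds the ligand. Counts are per gene and do not tell the receptor from the secreted form. Those of Il1rl1 were 826 in control, 470 in shMaf1, 366 in shBrf1 and 457 with ML-60218 at day 0, and 1287, 1746, 132 and 457 in the same order at day 2. In that order the levels were 23.8, 14.6, 11 and 13.7 CPM at day 0 and 43.4, 59.3, 5.09 and 17.4 CPM at day 2. At day 0 the control library stood above the 3 others, and at day 2 shMaf1 stood highest and shBrf1 lowest of all 8 libraries.

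Against control, Il1rl1 was 2.16-fold (1.91 to 2.45) lower in shBrf1 at day 0 and 8.53-fold (7.13 to 10.3) lower at day 2, and 2.49-fold (2.24 to 2.78) lower in ML-60218 at day 2. The log2 ratio of shMaf1 to control was -0.69 at day 0 and 0.45 at day 2. From day 0 to day 2 it rose 4.05-fold (3.66 to 4.50) in shMaf1 and fell 2.16-fold (1.77 to 2.66) in shBrf1, with log2 ratios of 0.85 in control and 0.34 in ML-60218, the latter -0.92 under spike-in scaling. The fall in shBrf1 was below the rule after removal of the length trend, with a log2 ratio of -0.74. Its difference from control at day 2 was -2.97 on the log2 scale, -2.79 after removal of that trend, -3.57 under spike-in scaling and -3.08 in the authors' deposited table. The part that the 3′ bias, the ribosomal RNA and the lower fibroblast marker sum of that library have in these values was not tested. In bulk samples, fewer cells with a transcript and less of it per cell cannot be told apart.

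Il33, which encodes the ligand of this receptor, was at 1.93 CPM in control at day 0 and 54.8 at day 2, at 1.84 and 24.5 in shMaf1, at 2.89 and 31.1 in shBrf1, and at 1.59 and 18.6 in ML-60218. It rose in all 4 conditions, by 28.3-fold (22.2 to 36.8) in control and 10.8-fold to 13.4-fold in the others, and at day 2 it was 2.23-fold (2.05 to 2.44) lower in shMaf1 and 2.95-fold (2.66 to 3.27) lower in ML-60218 than in control, the former with a log2 ratio of -0.99 under spike-in scaling. In shBrf1 the Il33 level was 1.76-fold (1.62 to 1.92) under control, a log2 ratio of -0.81 that did not pass the rule. At day 2 the levels of Il33 and Il1rl1 thus both lay below control in shBrf1 and ML-60218, whereas in shMaf1 that of Il33 was below control and that of Il1rl1 above it. Il1rap, the co-receptor, ran from 45.6 CPM in shMaf1 at day 0 to 81.4 CPM in control at day 2, with no ratio past the rule. Its log2 ratios to control at day 2 were -0.31 in shMaf1, -0.56 in shBrf1 and -0.36 in ML-60218.

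Il1rn, the antagonist of the interleukin 1 receptor, had 0.115 CPM at day 0 and 31.8 at day 2 in control, 0.965 then 37.2 in shMaf1, 0.090 then 3.74 in shBrf1, and 0.150 then 5.88 in ML-60218. Its day 2 level split the libraries as that of Il1rl1 did, with control and shMaf1 high and the other 2 low. It was 8.51-fold (6.90 to 10.6) below control in shBrf1 and 5.41-fold (4.56 to 6.46) below it in ML-60218.

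**Figure D2:**
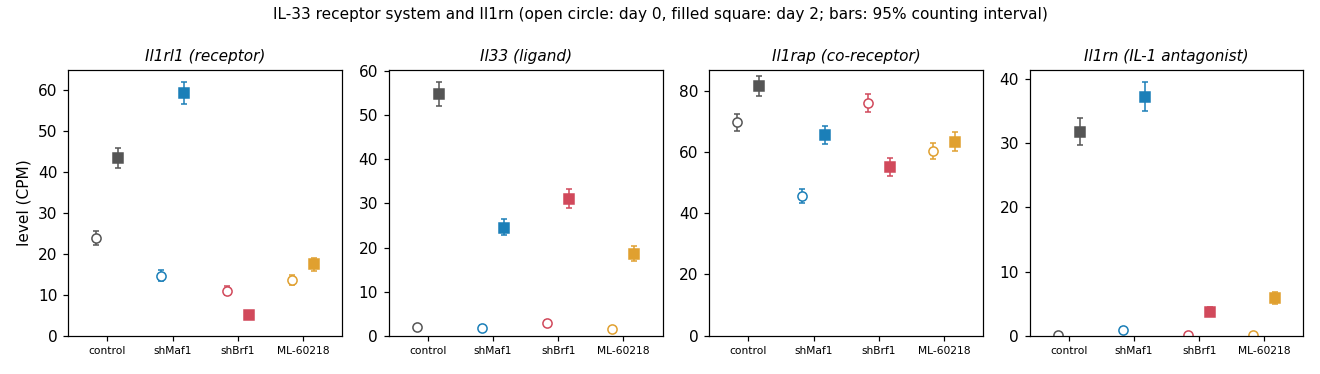
Level in CPM of Il1rl1, its ligand Il33, its co-receptor Il1rap and the interleukin 1 antagonist Il1rn (vertical axes from 0) in the 4 conditions, day 0 as open circles and day 2 as filled squares, 1 library each, with 95% counting intervals. Il33 reached 18.6 to 54.8 CPM at day 2 from 1.59 to 2.89 CPM at day 0, whereas Il1rl1 was at 5.09 CPM in shBrf1 and 59.3 CPM in shMaf1 at day 2.

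Before induction the perturbations left 9 of the 10 genes within the rule. At day 0, 1 gene was called lower in shBrf1 (Il1rl1), where 0.497% of all genes tested were lower and 0.489% higher. No gene of the set was called in shMaf1, where 2.6% of all genes were higher and 1.02% lower, or in ML-60218, where the shares were 0.041% and 0.0738%. The log2 ratios ran from -0.69 to 0.45 in shMaf1, from -1.08 to 0.40 in shBrf1 and from -0.78 to 0.02 in ML-60218. At this day 9 of the 10 genes reached 1 CPM in either library and Il6 did not.

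At day 2 the differences from control were wider, and again Il1rl1 was the one gene past the rule. It was lower in shBrf1, where 5.5% of all genes were lower and 3.11% higher, and in ML-60218, where 3.11% were lower and 1.77% higher. In shMaf1 none of the 10 was called, against 4.57% of all genes higher and 3.48% lower. The median log2 ratio of the 10 genes was -0.22 in shMaf1, -0.50 in shBrf1 and -0.21 in ML-60218, beside -0.001, 0.005 and 0.008 over all genes at 1 CPM or more. Under spike-in scaling 6 of the 10 genes were called lower in shBrf1, where 25.5% of all genes were lower, and 4 in ML-60218, where 12.7% were.

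Most of the calls, 10 of 13, lay between day 0 and day 2 of a condition. In control 1 gene fell (Ptgs2), where 9% of all genes were higher and 9.75% lower, and in shMaf1 1 rose (Il1rl1), where 4.95% were higher and 5.57% lower. In shBrf1 1 rose (Il6) and 4 fell (Nfkb1, Ptgs2, Il1rl1 and Vcam1), where 14.7% were higher and 17.3% lower. In ML-60218 2 rose (Nfkbia and Il6) and 1 fell (Vcam1), where 12.3% were higher and 14.5% lower. The median log2 ratio of the 10 genes was 0.46 in control, -0.01 in shBrf1 and 0.28 in ML-60218. In shMaf1 it was -0.04 over the 9 genes at 1 CPM or more in either library, without Il6. Over all genes at that level the medians were 0.04, -0.004, 0.03 and 0.02 in control, shBrf1, ML-60218 and shMaf1. Spike-in scaling left 0 rises in shBrf1 and in ML-60218 and gave 7 and 5 falls, where 58.3% and 62% of all genes were lower on that scale and 3.1% and 2.61% higher.

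The day 2 response was also compared between each perturbation and control as a difference of the log2 ratios, counted at 1 or more in size. For Il1rl1 the difference was 1.13 in shMaf1 and -1.89 in shBrf1, the 2 that passed. Over all genes 3.46% were higher and 2.45% lower in shMaf1, and for shBrf1 these shares were 2.55% and 4.91%. For ML-60218, where no gene of the set passed, they were 1.84% and 2.57%. The next largest in shMaf1 were Il6 at -0.91, Ptgs2 at 0.87 and Tnfaip3 at -0.80. In shBrf1 all 4 subunit genes had differences below 0, from -0.80 for Nfkb1 to -0.36 for Rela. All 4 were also below 0 in ML-60218, with a median of -0.31, and 3 of them in shMaf1. Of the further pathway genes listed below, 50 of 64 at 1 CPM or more had differences below 0 in shBrf1. In ML-60218 46 of 66 did, and in shMaf1 35 of 65. Their median differences were -0.30, -0.13 and -0.04 in shBrf1, ML-60218 and shMaf1, beside -0.03, -0.01 and -0.04 over all genes at that level.

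**Figure D3:**
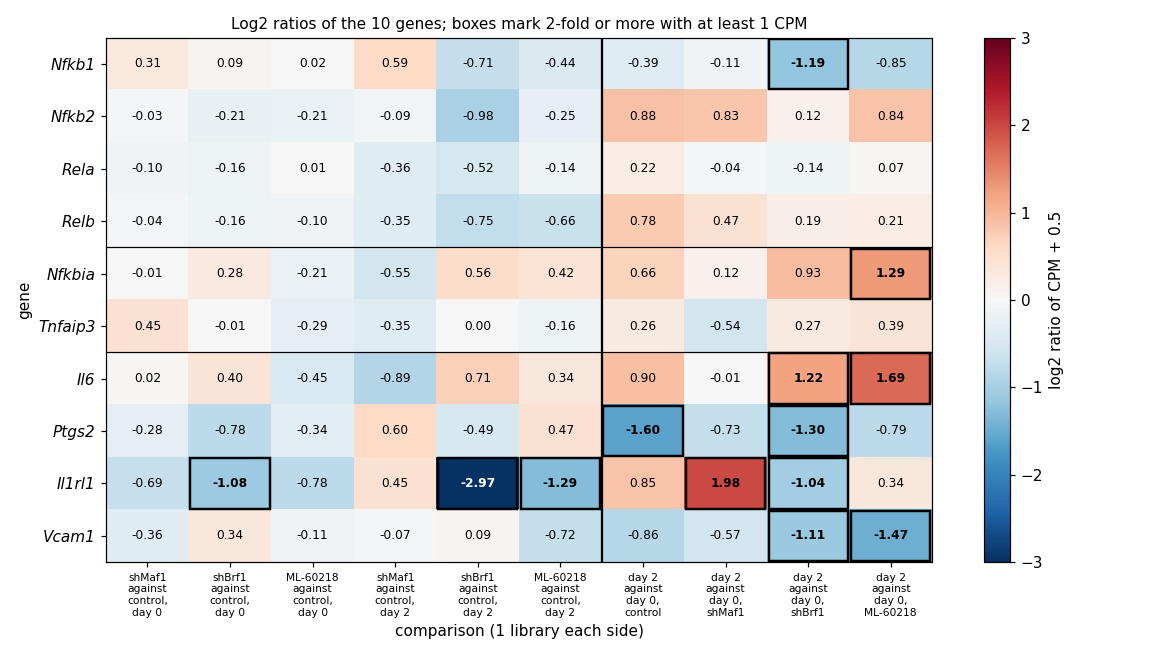
Log2 ratio of CPM + 0.5 on the TMM scale for the 10 genes (vertical axis, ordered by role) in 10 comparisons (horizontal axis), 1 library on each side; colour runs from blue (lower) to red (higher) and black boxes mark ratios past the 2-fold rule. Il1rl1 has 5 of the 13 boxes, and the column of day 2 against day 0 in shBrf1 has 5.

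Beyond the 10 genes, 82 further genes of the pathway were listed by role, and 65 of them had a mean of 1 CPM or more. Of the 11 ligand genes only 4 did, and Il1a, Il1b and Cd40lg, with the receptor gene Tnfrsf11a, had no count in any library. At day 0 none of the 82 was called against control in any perturbation, with 62 or 63 at 1 CPM or more in either library. At day 2 shMaf1 had 4 higher and 7 lower of 65 at that level, where 4.57% of all genes were higher and 3.48% lower. The library of shBrf1 had 0 higher and 5 lower of 63, beside 3.11% and 5.5% of all genes, and that of ML-60218 had 1 higher and 6 lower of 65, beside 1.77% and 3.11%. Under spike-in scaling the counts were 4 and 2 in shMaf1, beside 5.94% and 2.38% of all genes. They were 0 and 27 in shBrf1, beside 0.79% and 25.5%, and 0 and 17 in ML-60218, beside 0.539% and 12.7%.

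In shMaf1 at day 2 several genes that rose in control stood lower. Nfkbiz, a nuclear IkB protein that NF-kB and interleukin 1 induce, was at 62.6 CPM in control and 25.8 in shMaf1, 2.43-fold (2.23 to 2.64) lower. Sod2, the mitochondrial superoxide dismutase and a target of the pathway, was 2.46-fold (2.35 to 2.59) lower. The tumour necrosis factor receptor gene Tnfrsf1a was 2.03-fold (1.97 to 2.10) lower, and its log2 ratio of -1.02 was -0.86 under spike-in scaling. The cytokine signalling inhibitor Socs3 was 2.08-fold (1.99 to 2.17) lower, with -0.89 under spike-in scaling, and Irak3 and Tnfsf11 were also lower, with log2 ratios of -1.01 and -1.10 that were -0.87 and -0.97 under spike-in scaling and -0.86 and -0.92 with a pseudocount of 1. Mmp9, a matrix metalloproteinase, was 3.76-fold (3.26 to 4.35) higher, the double-stranded RNA receptor gene Tlr3 was 2.89-fold (2.48 to 3.38) higher, and the cytokine gene Lif and the adaptor gene Traf1 were higher at levels of 2.99 and 2.17 CPM, the latter with a log2 ratio of 0.84 under a pseudocount of 1.

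In shBrf1 and ML-60218 at day 2 the lower genes included Il6st, which encodes the signalling receptor chain of interleukin 6, and Nfkbie, which encodes an IkB protein. Il6st was at 833 CPM in control, 809 in shMaf1, 212 in shBrf1 and 371 in ML-60218. It was 3.92-fold (3.81 to 4.04) below control in shBrf1 and 2.24-fold (2.19 to 2.30) below it in ML-60218. Nfkbie was 2.15-fold (1.89 to 2.46) lower in shBrf1 and 2.64-fold (2.30 to 3.05) lower in ML-60218. Mmp9 and Socs3 were lower in shBrf1, each 2.69-fold. The macrophage growth factor gene Csf1 was 2.13-fold (2.02 to 2.25) lower in ML-60218 and Plau, the urokinase, 7.95-fold (3.99 to 18.0) lower, while Csf3 was 4.09-fold (2.18 to 8.24) higher at 1.79 CPM, with a log2 ratio of 0.81 under spike-in scaling and 0.96 with a pseudocount of 1.

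From day 0 to day 2, 63 to 66 of the 82 reached 1 CPM in either library. In control 15 rose and 6 fell, where 9% of all genes were higher and 9.75% lower, and in shMaf1 7 rose and 7 fell, beside 4.95% and 5.57%. In shBrf1 8 rose and 9 fell, beside 14.7% and 17.3% of all genes, and in ML-60218 14 rose and 8 fell, beside 12.3% and 14.5%. Under spike-in scaling the counts were 7 and 17 in control, where 3.76% of all genes were higher and 28.7% lower, and 4 and 9 in shMaf1, beside 2.81% and 11%. They were 3 and 40 in shBrf1, beside 3.1% and 58.3%, and 5 and 41 in ML-60218, beside 2.61% and 62%. The interleukin 1 receptor gene Il1r1 rose 3.54-fold (3.42 to 3.66) in control and 2.97-fold, 2.34-fold and 2.73-fold in shMaf1, shBrf1 and ML-60218, where spike-in scaling gave log2 ratios of -0.003 for shBrf1 and 0.15 for ML-60218. Bcl3, a nuclear IkB protein that works with p50 and p52 dimers, rose 4.0-fold (3.53 to 4.55) in control, 2.35-fold in shMaf1 and 2.44-fold in ML-60218, the last 2 at 0.86 and -0.01 in log2 ratio under spike-in scaling. In shBrf1 Bcl3 was at 9.06 CPM at day 0 and 18.4 CPM at day 2, a log2 ratio just short of the rule. Nfkbiz rose 3.00-fold (2.75 to 3.28) in control, 3.46-fold in shBrf1 and 4.03-fold in ML-60218, with log2 ratios of 0.90, 0.55 and 0.70 under spike-in scaling, and had a level of 13.6 CPM at day 0 and 25.8 CPM at day 2 in shMaf1. Toll-like receptor genes went the other way: Tlr3 fell 6.92-fold (6.03 to 7.98) in control, 7.05-fold in shBrf1 and 7.08-fold in ML-60218, with 38.9 and 22.1 CPM at days 0 and 2 in shMaf1. Irak2, a kinase of the interleukin 1 and Toll-like pathway, fell in all 4 conditions, by 2.22-fold to 3.63-fold. Tnfsf11, the ligand gene of the receptor that Tnfrsf11a encodes, had no count at day 0 in any library and 95, 36, 83 and 130 counts at day 2 in control, shMaf1, shBrf1 and ML-60218, past the rule in all 4.

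**Figure D4:**
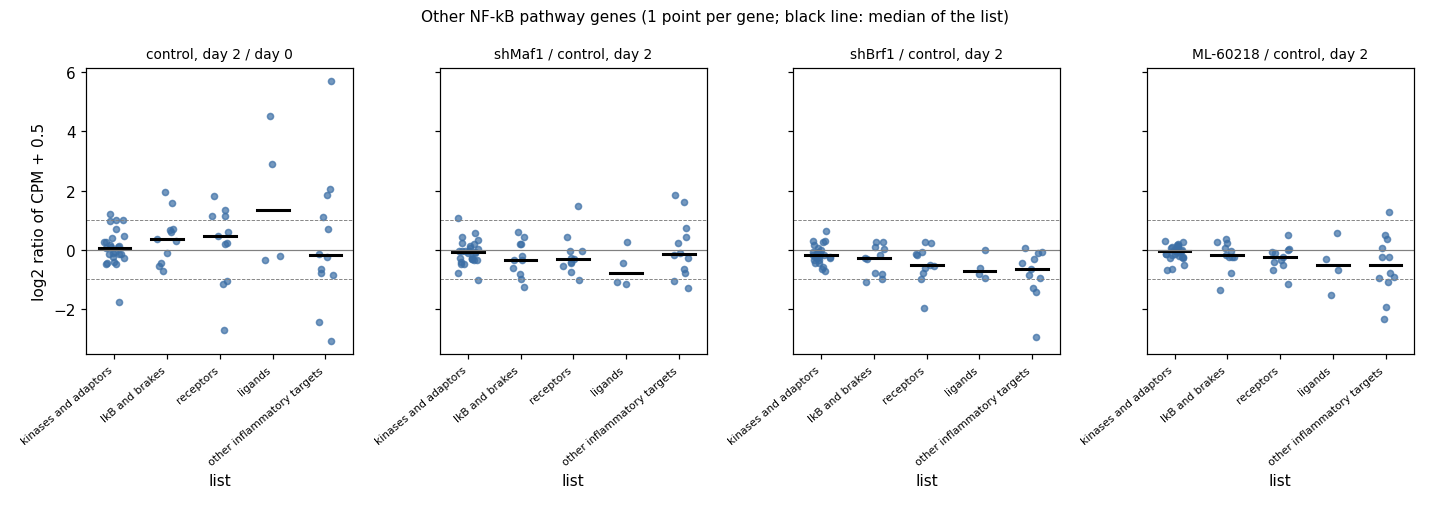
Log2 ratio of CPM + 0.5 (TMM scale) of those other pathway genes that reached 1 CPM in either library of the panel's comparison, 1 point per gene. Lists are on the horizontal axis, with the list's median as a black line and dashed lines at 1 and -1. The first panel is day 2 against day 0 in control and the others are each perturbation against control at day 2, where the median over the lists together was -0.22 in shMaf1, -0.26 in shBrf1 and -0.14 in ML-60218.

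The pattern of each gene over the 8 libraries was compared with those of 5495 genes that varied at least 2-fold, by Pearson correlation of the log2 levels, which describes libraries that share 2 days and 4 conditions. The nearest genes depend on the measure: of the 21 named by Pearson correlation, 3 for each of 7 genes, 4 were also among the 3 nearest by Spearman correlation, namely Atp10a and Il6st for Il1rl1, Pop7 for Il6 and Plekha2 for Ptgs2. By Pearson correlation Nfkbia and Il6 were alike (0.99), each among the 3 nearest genes of the other by that measure and not by Spearman correlation (0.93 between them), with Pop7 and Ppcs near Nfkbia and Pop7 and Hlx near Il6. Both are also genes with a consensus match in the sequences shown above, as are Nfkb2 and Tnfaip3, whose patterns differed. Whether the matches bear on these patterns was not tested, and the pattern of Il6 rests on 11 to 77 counts a library. Il1rl1 was nearest to Atp10a (0.97), Ampd3 and Il6st, all of which had their lowest level, like Il1rl1, in shBrf1 at day 2. By the same measure Nfkb1 was nearest to Smo (0.999), Nfkb2 to Synpo (0.97), Ptgs2 to Slc7a11 (0.98) and Vcam1 to Il3ra (0.98), none of them among the 3 nearest by Spearman correlation, where their values were 0.98, 0.88, 0.95 and 0.93. Among the 10 genes themselves Nfkb2 and Relb had a correlation of 0.89, and Nfkb1 had -0.93 with Nfkbia and -0.91 with Il6. For Rela, Relb and Tnfaip3, which varied less than 2-fold, no nearest genes were sought.

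**Figure D5:**
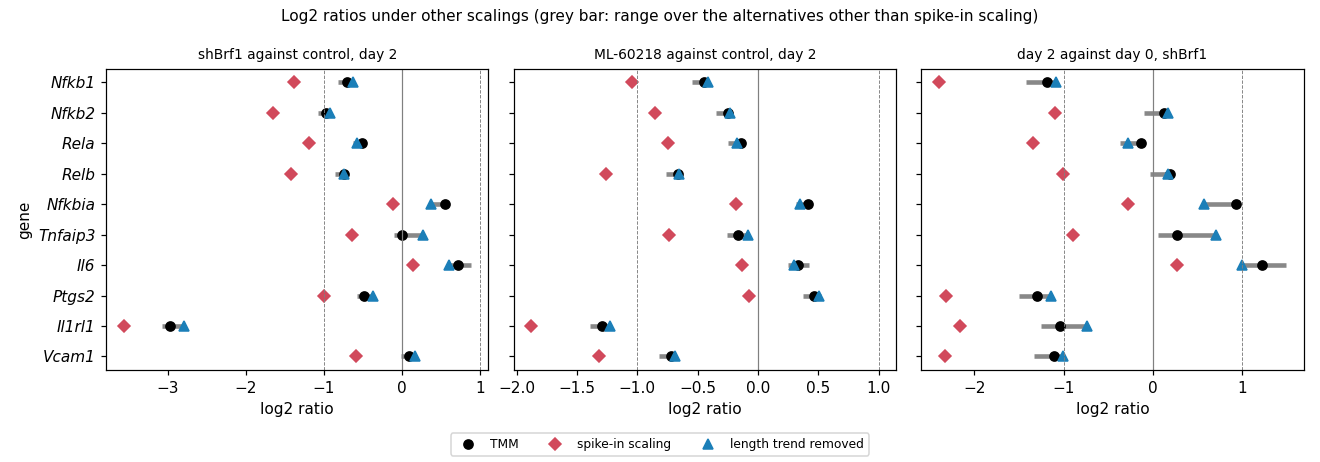
Log2 ratios of the 10 genes (vertical axis) in 3 comparisons with TMM scaling (black circles), spike-in scaling (red diamonds) and TMM with the trend on transcript length removed (blue triangles); grey bars span all alternatives other than spike-in scaling and dashed lines mark 1 and -1. Spike-in scaling moved every ratio down, turned Nfkbia from 0.56 to -0.12 for shBrf1 against control at day 2, and gave Il1rl1 log2 ratios of -3.57, -1.88 and -2.16 in the 3 panels, against -2.97, -1.29 and -1.04 with TMM.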

How the data were processed

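Messenger RNA of 8 cultures was sequenced from a stranded poly(A) library kit, per the labels' protocols, and aligned with STAR 2.4 to mm10, per the submitters' processing notes. The authors deposited 6 comparison tables with an expected count for each gene, an estimated count they had rounded to a whole number, and a log2 fold change whose normalization is not given in the sources used here. Quality tables hold, per the file headers, the percent of ribosomal RNA, the ERCC read count and a column headed Skewness, taken here as a 3′ bias score. Control columns repeated between tables were equal.

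Counts were scaled with TMM in edgeR 4.0.16 (R 4.3.3) over all 8 libraries. Log2 ratios used CPM with a pseudocount of 0.5, and exact conditional binomial 95% intervals of the fold came from the counts. No molecular identifiers were used, and the intervals cover counting error only. Scripts were tested on simulated data. With 1 library a group nothing was tested. A gene at or above 1 CPM in either library entered the shares over all genes.

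The 10 genes were named in full. Of 82 others, in 5 lists, those past the rule were to be named, at most 6 in each direction, and the text gives a selection. Otulin and Adgre1 were matched through older symbols (Fam105b and Emr1). The genes and lists were chosen with earlier results of these data known.

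The settings tried were ERCC scaling, library totals, size factors of DESeq2 1.42.0, pseudocounts of 0.1 and 1, no floor, a floor of 5 CPM, a rule of 1.5-fold, the authors' log2 fold change, removal of a lowess trend (fraction 0.3) on transcript length, known for 96.1% of 12137 genes, Spearman correlation, and promoters cut at the start. Python 3.11.15, numpy 2.4.6, pandas 2.3.3, scipy 1.17.1, statsmodels 0.14.6 and matplotlib 3.10.9 were used.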

Additional observations from a re-analysis of the deposited data

Results flagged for a closer look

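Il1rl1, the interleukin 33 receptor gene, was picked out 4 times because 2 conditions or days lay on opposite sides of 0 by at least 1 on the log2 scale, each with a counting interval that excluded no change. None of these differences was tested, since each value rests on 1 library on each side. The log2 ratio of shMaf1 to control was 0.45 at day 2 and -0.69 at day 0. From day 0 to day 2 it was -1.04 in shBrf1 against 0.85 in control, and -1.04 in shBrf1 against 1.98 in shMaf1. In ML-60218 it was 0.34 against -1.04 in shBrf1, and spike-in scaling turned the value of ML-60218 to -0.92.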

How the results depend on the processing

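With 1 library per group, depth limits Il6 (11 to 77 counts) most, and variation between cultures was not measured. No paired analysis was possible because each group has 1 library and the labels give no replicate numbers. Spike-in scaling needs the same spike per RNA in each library, on which the labels are silent. Of 100 log2 ratios of the 10 genes it turned the sign of 23 and any other setting that of 9, and none of the 13 past the rule reversed. Counts of called genes of the 10 moved as follows, and 224 other such values stayed within 1.5 times. Under spike-in scaling, lower calls went at day 2 from 1 to 6 with shBrf1 and from 1 to 4 with ML-60218 against control, and from day 0 to day 2 from 1 to 3 in control, 0 to 1 in shMaf1, 4 to 7 in shBrf1 and 1 to 5 in ML-60218, while higher calls went from 1 to 0 for shBrf1 and 2 to 0 for ML-60218. Differences of the response went from 1 to 2 higher in shMaf1, 1 to 4 lower in shBrf1 and 0 to 4 lower in ML-60218. By library totals, lower calls were 2 for shBrf1 against control at day 2, and 2 in control and 3 in ML-60218 between days. A rule of 1.5-fold gave at day 0 1 lower in shMaf1, 2 with shBrf1 and 1 with ML-60218, 2 higher and 1 lower in shMaf1, 1 higher and 4 lower in shBrf1 and 3 lower in ML-60218 at day 2, and 5 higher and 2 lower in control, 2 higher and 1 lower in shMaf1, 2 higher in shBrf1 and 3 lower in ML-60218 between days, with response differences of 2 higher and 2 lower, 4 lower, and 3 higher and 1 lower. A pseudocount of 0.1 gave 1 lower in shMaf1 at day 2, as did the authors' log2 fold change, 1 higher in control between days, and response differences of 1 lower in shMaf1 and 1 higher in ML-60218. A pseudocount of 1 and a floor of 5 CPM each left 0 higher in shBrf1 between days, and that floor and removal of the length trend each left 1 of 2 in ML-60218. TMM without the shBrf1 library of day 2, chosen after seeing the data, moved no count in the comparisons that do not use that library. Among the other pathway genes, spike-in scaling reversed 6 rises between days, to -0.20 for Tnfrsf1a and -0.0028 for Il1r1 in shBrf1, and to -0.082 for Map3k14, -0.0091 for Bcl3, -0.050 for Zc3h12a and -0.091 for Tnfrsf1a in ML-60218. The causes of these moves were not tested.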

Other observations

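Other inflammatory targets of the pathway followed no common direction between day 0 and day 2. Mmp9 was at 73.9 CPM in control at day 0 and 8.30 at day 2, at 110 and 31.2 in shMaf1, at 53.8 and 3.08 in shBrf1, and at 48.4 and 4.12 in ML-60218. It fell in all 4 conditions, by 8.91-fold (7.82 to 10.2) in control, 3.54-fold (3.29 to 3.81) in shMaf1, 17.4-fold (13.9 to 22.1) in shBrf1 and 11.8-fold (9.67 to 14.4) in ML-60218. Plau, the urokinase, also fell in all 4, by 6.19-fold, 2.54-fold, 11.5-fold and 28.3-fold in the same order. Sod2 rose 4.14-fold (3.92 to 4.37) in control, 4.24-fold (4.0 to 4.49) in shBrf1 and 5.41-fold (5.13 to 5.71) in ML-60218, while its levels in shMaf1 were 48.1 and 78.7 CPM. Under spike-in scaling the rise of Sod2 in shBrf1 was 0.85 on the log2 scale and did not pass the rule. Ptges, which encodes a prostaglandin E synthase that acts after the cyclooxygenases, rose 2.15-fold (2.07 to 2.23) in control, where Ptgs2 fell, and 2.97-fold (2.87 to 3.09) in ML-60218, with log2 ratios of 0.43 and 0.27 under spike-in scaling.

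Tnfrsf1b, which encodes a receptor of the tumour necrosis factor, was at 32.8 CPM in control at day 0 and 73.4 at day 2, at 21.3 and 53.7 in shMaf1, at 34.7 and 64.7 in shBrf1, and at 25.2 and 104 in ML-60218. It rose 4.13-fold (3.82 to 4.47) in ML-60218, 2.24-fold (2.08 to 2.41) in control and 2.52-fold (2.31 to 2.76) in shMaf1, with log2 ratios of 0.74, 0.48 and 0.99 under spike-in scaling. Its log2 ratios to control at day 2 were -0.45 in shMaf1, -0.18 in shBrf1 and 0.50 in ML-60218, none past the rule.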
